A study of Mus musculus with 30 samples.

Results

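Maf, Prdm1, Bach2 and Bhlhe40 encode transcription factors that act on the Il10 gene, or on each other, in mouse helper T cells. They were chosen by gene symbol and are 4 of the 23420 genes in the deposited tables. All 4 passed the filter on low counts, as did Il10, which is given beside them. The 30 RNA-seq libraries were made from CD4 T cells of C57BL/6 mice with the genotype Foxp3-GFP; IL-10 Thy1.1, in which green fluorescent protein reports Foxp3 and surface Thy1.1 reports IL-10. Naive cells without GFP were cultured with anti-CD3 at 2.5 µg/ml on irradiated feeder splenocytes, without their CD4 T cells, at 6 feeders per T cell. After 72 h, live GFP-negative CD4 T cells were sorted by the IL-10 reporter, and 2000 cells were lysed for each library. The 5 cultures differed in their cytokines, and each gave an IL-10 positive and an IL-10 negative group of 3 libraries.

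Th1 cultures, named for helper cells that make interferon gamma, received 20 ng/ml IL-12. Th2 cultures, named for helper cells that make IL-4, received 20 ng/ml IL-4. Th17 cultures, the kind the labels call non-pathogenic, received 2 ng/ml TGF-β1 and 25 ng/ml IL-6. Cultures of the pathogenic kind (pTh17) received 20 ng/ml IL-1β, 25 ng/ml IL-6 and 20 ng/ml IL-23. Tr1 cultures, named for type 1 regulatory cells that lack Foxp3, received 25 ng/ml IL-27. All 10 groups shared the double reporter and the feeder cells, and they describe short cultures rather than cells taken from tissue. The sort description gives Thy1.1 as positive for both compartments, so the compartment was taken from the sample titles. The titles number the 3 libraries of a group, and nothing says that they came from separate mice or cultures, so the p-values rest on a spread between libraries that could be technical alone.

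Interleukin 10 dampens inflammation, and each of the helper T cell types studied here can make it. Maf, a basic leucine zipper factor, binds and activates Il10 in several helper subsets. Prdm1 encodes Blimp-1, a zinc finger factor that marks terminally differentiated lymphocytes and promotes Il10 expression in effector T cells. Bach2 is a repressor that keeps T cells in a naive or memory-like state and holds down Prdm1 and cytokine genes. Bhlhe40 is a basic helix-loop-helix repressor which, in mice, has been reported to hold down Il10 in Th1 cells and to promote inflammatory cytokines.

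Counts were rounded expected counts, scaled for depth as CPM. CPM gives the count as a share of the library total, after edgeR's TMM scaling had adjusted that total. Before this scaling, library totals ran between 4394704 and 11850597. Within groups, the log CPM of 2 libraries correlated at r = 0.971 to 0.992 over the 30 pairs, and the counts of every pair differed by more than sampling noise, with a chi-square of 2.85 to 12.4 per degree of freedom. The Tr1 IL-10 positive library numbered 18 stood apart from the other 2 of its group, and the Tr1 differences of the 4 members and Il10, and the Tr1 counts of genes called, are given with and without it. The summed level of 7 T cell genes was 3162 to 4853 CPM in all 30 libraries. Transcripts of other cell types were present and differed between compartments in some cultures. Cd8a and Cd8b1, genes of CD8 T cells, were both called higher in Th1, Th2 and Tr1, and neither was called in Th17 or pTh17. Their Tr1 sum was 42.7 to 51.4 CPM in IL-10 positive libraries and 23.7 to 27.3 CPM in IL-10 negative libraries. The summed level of 11 B cell genes in pTh17 was 229 to 309 CPM in the IL-10 positive and 112 to 124 CPM in the IL-10 negative libraries, and 7 of its 8 tested genes were called higher. In Th1, 4 NK cell genes summed to 81.2 to 85.1 CPM in IL-10 positive libraries and 6.53 to 8.51 CPM in IL-10 negative libraries. In Tr1 they summed to 59.2 to 68.5 CPM in IL-10 positive libraries and 5.41 to 5.89 CPM in IL-10 negative libraries. These sums were mostly Klrk1, while the defining gene Ncr1 averaged at most 0.355 CPM in the groups of both cultures. The 7 myeloid genes summed to 69.05 to 78.4 CPM in Th1 IL-10 positive libraries and 17.1 to 24.1 CPM in Th1 IL-10 negative libraries, mostly Itgam, while Csf1r averaged 0.182 CPM in the IL-10 positive and 0.0473 CPM in the IL-10 negative group. In pTh17 the myeloid genes summed to 24.2 to 31.5 CPM in IL-10 positive libraries and 11.3 to 13.3 CPM in IL-10 negative libraries, and Lyz2 averaged 2.82 CPM in the IL-10 positive group and was at 0 in the IL-10 negative group. The 4 genes of regulatory T cells summed to 17.96 to 21.4 CPM in Th17 IL-10 positive libraries and 144 to 158 CPM in Th17 IL-10 negative libraries, mostly Gpr83 and Nrp1, while Foxp3 averaged 0.878 CPM in the IL-10 positive and 2.47 CPM in the IL-10 negative group. The part of these transcripts in the differences of the members was not tested.

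Il10 itself, the gene behind the sort, was higher in the IL-10 positive group of every culture. It averaged 380.5 ± 13.04 CPM in Th1 IL-10 positive cells and 5.73 ± 1.06 CPM in Th1 IL-10 negative cells (SD, n = 3 each, as for all means here). In Th2 it averaged 815 ± 57.7 CPM in the IL-10 positive group and 66.2 ± 7.07 CPM in the IL-10 negative group. The other IL-10 positive groups were lower, at 23.5 ± 1.71 CPM in Th17, 51.6 ± 1.90 CPM in pTh17 and 47.4 ± 7.23 CPM in Tr1. Their IL-10 negative groups averaged 1.66 ± 1.38 CPM in Th17, 0.779 ± 0.426 CPM in pTh17 and 0.474 ± 0.435 CPM in Tr1. The Tr1 log2 difference of Il10, IL-10 positive minus negative, was 6.47 ± 0.29 (SE), or 6.42 without the library numbered 18. Among the 5 IL-10 positive groups only pTh17 and Tr1, neighbours in this order, did not differ beyond their spread (edgeR, adjusted p = 0.416). Every Th2 IL-10 negative library lay above every IL-10 positive library of pTh17, Tr1 and Th17.

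**Figure D1:**
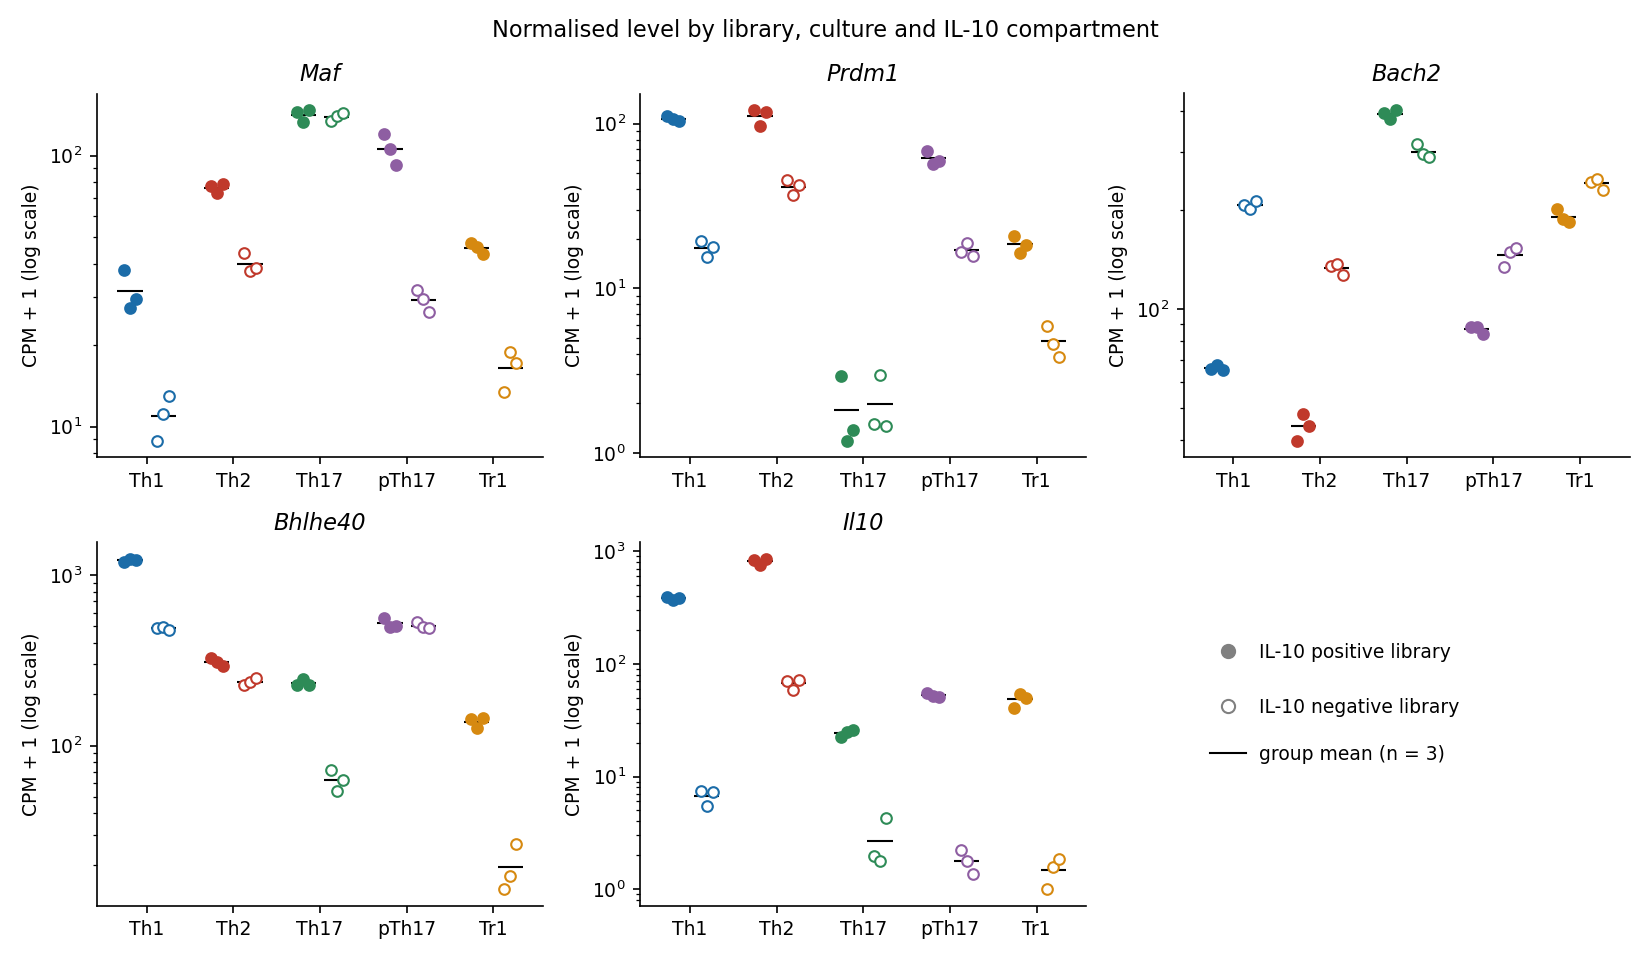
Level of Il10 and of the 4 regulators in each of the 30 libraries, plotted as CPM + 1 on a log axis, by culture, with the IL-10 positive group left of the IL-10 negative group. Points are libraries and horizontal lines are group means (n = 3). Prdm1 is lowest in the Th17 groups, where Maf is highest.

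Maf was called higher in IL-10 positive cells in 4 of the 5 cultures, by 1.93-fold to 3.72-fold, and was not called in Th17, where its level was highest. Of all 12611 genes tested, 6.63% were called higher in at least 4 cultures. In Th1 it had 36.97, 26.4 and 28.6 CPM in the 3 IL-10 positive libraries and 7.89, 10.1 and 11.9 CPM in the 3 IL-10 negative libraries. In Th2 it had 76.1, 71.6 and 77.8 CPM in IL-10 positive libraries and 42.8, 36.5 and 37.5 CPM in IL-10 negative libraries. In pTh17 it had 119, 104 and 91.2 CPM in IL-10 positive libraries and 30.8, 28.5 and 25.4 CPM in IL-10 negative libraries. Every IL-10 positive library lay above every IL-10 negative library in these 3 cultures. The same held in Tr1, with 46.4, 45.1 and 42.3 CPM in IL-10 positive libraries and 12.4, 17.8 and 16.2 CPM in IL-10 negative libraries. In Th17 Maf had 144, 132 and 146 CPM in IL-10 positive libraries and 133, 139 and 143 CPM in IL-10 negative libraries. There the groups overlapped.

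The log2 difference of Maf, IL-10 positive minus negative, was 1.90 ± 0.11 in pTh17 (SE; edgeR, adjusted p = 1.5e-16), 1.58 ± 0.15 in Th1 (adjusted p = 1.36e-11), 1.52 ± 0.14 in Tr1 (adjusted p = 1.86e-11) and 0.95 ± 0.10 in Th2 (adjusted p = 2.21e-09). It was 0.028 ± 0.10 in Th17 (edgeR, adjusted p = 0.822). Without the Tr1 IL-10 positive library that stood apart, the Tr1 value was 1.53. In these bulk libraries, a larger share of cells expressing a gene and more of its RNA per cell cannot be told apart. Across the IL-10 positive groups, high to low, Maf ran in the order Th17, pTh17, Th2, Tr1 and Th1, and each neighbouring pair differed (edgeR, adjusted p between 1.7e-07 and 0.000318). Across the IL-10 negative groups the order was Th17, Th2, pTh17, Tr1 and Th1, again with each neighbouring pair called. Pooled over the pairs of groups compared in level, 59.9% of all genes were called, and 33.7% to 74.0% in a single pair. The Th17 IL-10 negative group, at 138 ± 5.05 CPM, held more Maf than the IL-10 positive group of any other culture, the nearest being pTh17 at 105 ± 14.1 CPM (log2 difference 0.39 ± 0.10; edgeR, adjusted p = 0.000693). Maf lies on chromosome 8 of GRCm38, the assembly that mm10 names (RefSeq gene 115703253 to 115706894), and the tables count it on 1 transcript.

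Prdm1 was higher in IL-10 positive cells in Th1, Th2, pTh17 and Tr1, by 2.74-fold to 6.42-fold, and was nearly undetected in both Th17 groups. In Th1 it had 109.9, 105 and 102 CPM in IL-10 positive libraries and 18.3, 14.5 and 16.8 CPM in IL-10 negative libraries. In Th2 it had 119.8, 96.1 and 116 CPM in IL-10 positive libraries and 44.1, 35.8 and 41.2 CPM in IL-10 negative libraries. The IL-10 positive libraries of these cultures had the highest levels of the gene in the series, and the compartments did not overlap in either culture. In pTh17 it had 67.01, 55.8 and 58.4 CPM in IL-10 positive libraries and 15.5, 17.8 and 14.6 CPM in IL-10 negative libraries. In Tr1 it had 19.8, 15.4 and 17.3 CPM in IL-10 positive libraries and 4.87, 3.597 and 2.85 CPM in IL-10 negative libraries. Both cultures again showed every IL-10 positive library above every IL-10 negative one. In Th17 the deposited counts, rounded, were 20, 2 and 4 in IL-10 positive libraries and 3, 13 and 3 in IL-10 negative libraries, so the Th17 comparison rests on few reads.

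The log2 difference of Prdm1 was 2.68 ± 0.16 in Th1 (edgeR, adjusted p = 8.57e-17), 2.24 ± 0.27 in Tr1 (adjusted p = 1.17e-08), 1.92 ± 0.16 in pTh17 (adjusted p = 4e-12) and 1.45 ± 0.14 in Th2 (adjusted p = 5.68e-11). The Tr1 value without the library numbered 18 was 2.22. In Th17 it was -0.27 ± 0.56 (edgeR, adjusted p = 0.704), and both its sign and its call turned on 1 library, with -1.76 without IL-10 positive library 10 (adjusted p = 0.0212) and 0.77 without IL-10 negative library 11 (adjusted p = 0.398). Th2 and Th1 IL-10 positive groups, first and second in level, did not differ beyond their spread (edgeR, adjusted p = 0.656), and pTh17, Tr1 and Th17 followed, each called lower than the one before. Among IL-10 negative groups Th2 was highest, Th1 and pTh17 were not called different (edgeR, adjusted p = 0.87), and Tr1 and Th17 were lowest. Blimp-1 is also a plasma cell factor. In pTh17 the plasma cell gene Sdc1 averaged 11.2 CPM in the IL-10 positive group and 6.49 CPM in the IL-10 negative group, and Tnfrsf17 was at 0 in all 6 libraries. The part of the B cell and plasma cell transcripts in the pTh17 values of Prdm1 was not tested.

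The RefSeq promoter windows of Prdm1 and Bach2, the members for which a window was given, are shown because their levels differed in opposite directions in 4 of the 5 cultures, and because Bach2 protein is known to bind AP-1 type elements and Blimp-1 to bind a GAAAG core. Each is the 250 bases before the start site in GRCm38.p6, read 5′ to 3′ on the gene's strand. The Prdm1 window is chr10:44458749-44458998 on the minus strand, and the Bach2 window is chr4:32417185-32417434 on the plus strand. Capitals mark a motif match.
Prdm1: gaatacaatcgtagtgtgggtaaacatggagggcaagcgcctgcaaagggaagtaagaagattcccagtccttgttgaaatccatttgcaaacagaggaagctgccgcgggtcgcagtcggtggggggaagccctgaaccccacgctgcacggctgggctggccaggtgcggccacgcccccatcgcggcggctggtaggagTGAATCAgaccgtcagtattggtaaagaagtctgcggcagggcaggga
Bach2: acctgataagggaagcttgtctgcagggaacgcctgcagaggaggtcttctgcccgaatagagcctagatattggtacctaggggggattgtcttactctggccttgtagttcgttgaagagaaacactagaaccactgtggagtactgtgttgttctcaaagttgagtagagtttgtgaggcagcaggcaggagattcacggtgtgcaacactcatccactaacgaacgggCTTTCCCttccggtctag
In the Prdm1 window the capitals are TGAATCA, a match to TGANTCA, which also matches on the other strand. TGANTCA is a loose form of the AP-1 type element of BACH proteins and BATF-JUN dimers. Any middle base was allowed, and here it is A. The match lies at bases 203 to 209 and starts 48 bases before the start site. This pattern, with any middle base, occurs in 6.73% of the 32536 windows of this length. In the Bach2 window the capitals are CTTTCCC, which reads on the other strand as a match to GNGAAAG, a Blimp-1 core found in 19.4% of windows. It lies at bases 233 to 239 and starts 18 bases before the start site. Neither window holds TGCTGA, which is part of the Maf element (16.1% of windows), or CACGTG, the E-box of Bhlhe40 (6.04%). Both strands were searched, and TGCTGA and TGANTCA can overlap, since they share the letters TGA. The matches are strings of letters, and no binding was measured here. Both windows overlap no annotated exon, and lie within an intron of longer transcripts, 1 of the 4 GENCODE transcripts of Prdm1 and 3 of the 7 of Bach2. The tables count each gene on 1 transcript, so the start sites in use cannot be read from them. Matching sequence was given for 2 of the 5 genes looked up, and Maf, Bhlhe40 and Il10 are named only.

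Bach2 was the member that was lower in IL-10 positive cells in Th1, Th2, pTh17 and Tr1, and it was higher in Th17. Of all genes tested, 4.42% were called lower in at least 4 cultures, and 13.5% were called higher in at least 1 culture and lower in at least 1 other. In Th1 it had 64.6, 66.7 and 64.1 CPM in IL-10 positive libraries and 206, 199.95 and 211 CPM in IL-10 negative libraries. In Th2 it had 38.7, 46.9 and 42.98 CPM in IL-10 positive libraries and 134, 136 and 126 CPM in IL-10 negative libraries. Every IL-10 positive library of these cultures lay below every IL-10 negative one. In pTh17 Bach2 had 87.01, 87.2 and 82.7 CPM in IL-10 positive libraries and 133, 148 and 153 CPM in IL-10 negative libraries. In Tr1 it had 199.9, 186 and 183 CPM in IL-10 positive libraries and 241, 248 and 229.6 CPM in IL-10 negative libraries. The gap was smaller in Tr1, but the compartments still did not overlap. In Th17 the order was the other way, with 394, 377 and 402 CPM in IL-10 positive libraries and 316, 295 and 288 CPM in IL-10 negative libraries, again without overlap.

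The log2 difference of Bach2 was -1.66 ± 0.068 in Th1 (edgeR, adjusted p = 9.79e-22) and -1.62 ± 0.068 in Th2 (adjusted p = 4.36e-21), which is 3.16-fold and 3.08-fold lower. It was -0.75 ± 0.067 in pTh17 (edgeR, adjusted p = 2.32e-11) and -0.34 ± 0.065 in Tr1 (adjusted p = 7.98e-05), or -0.34 without the library numbered 18. In Th17 it was 0.38 ± 0.062, which is 1.30-fold higher (edgeR, adjusted p = 1.57e-06). The IL-10 positive groups ran from Th17 through Tr1, pTh17 and Th1 to Th2, at 391 ± 12.5, 189.7 ± 9.06, 85.6 ± 2.58, 65.1 ± 1.35 and 42.9 ± 4.09 CPM. Each neighbouring pair differed (edgeR, adjusted p at most 7.27e-06). The IL-10 negative groups ran from Th17 through Tr1, Th1 and pTh17 to Th2, over the narrower span of 299.9 to 132 CPM, and their last 2, pTh17 and Th2, were not called different (edgeR, adjusted p = 0.077). That pair was called with size factors, with DESeq2, with only the groups compared (adjusted p of 0.0106 to 0.0289) and by edgeR without pTh17 IL-10 negative library 13 (adjusted p = 0.0245). B cells also express Bach2. The B cell genes summed to more in the IL-10 positive than in the IL-10 negative group of pTh17, in which Bach2 was lower, and their part in its pTh17 value was not tested.

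Bhlhe40 was higher in IL-10 positive cells in Th1, Th2, Th17 and Tr1, by 1.31-fold to 7.26-fold, and was not called in pTh17. In Th1 it had 1199, 1249 and 1216 CPM in IL-10 positive libraries and 487, 493 and 476 CPM in IL-10 negative libraries. In Tr1 it had 142, 125 and 144 CPM in IL-10 positive libraries and 13.4, 16.3 and 25.3 CPM in IL-10 negative libraries. Th1 IL-10 positive cells thus had the highest level of the series and Tr1 IL-10 negative cells the lowest. In Th17 it had 227, 246 and 226 CPM in IL-10 positive libraries and 70.8, 53.5 and 61.9 CPM in IL-10 negative libraries. In Th2 it had 327, 309.9 and 291 CPM in IL-10 positive libraries and 226, 234 and 248 CPM in IL-10 negative libraries. The compartments did not overlap in these 4 cultures, and the Th2 gap was the smallest of the 4. In pTh17, with 562, 495 and 501 CPM in IL-10 positive libraries and 527, 498 and 489.6 CPM in IL-10 negative libraries, they overlapped.

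The log2 difference of Bhlhe40 was 2.86 ± 0.12 in Tr1 (edgeR, adjusted p = 1.07e-21), 1.91 ± 0.10 in Th17 (adjusted p = 1.31e-19), 1.33 ± 0.085 in Th1 (adjusted p = 5.55e-16) and 0.39 ± 0.085 in Th2 (adjusted p = 0.000613). Without the Tr1 library numbered 18 the Tr1 value was 2.79. In pTh17 it was 0.041 ± 0.084 (edgeR, adjusted p = 0.811), and it was -0.021 without IL-10 positive library 13. High to low, the IL-10 positive groups ran in the order Th1, pTh17, Th2, Th17 and Tr1, at 1221 ± 25.7, 519.6 ± 37.2, 309 ± 18.3, 233 ± 11.1 and 137 ± 10.4 CPM, and each neighbouring pair differed (edgeR, adjusted p at most 9.66e-05), although Th2 and Th17 were not called apart with limma on log2(TPM + 1) (0.16, adjusted p = 0.226). Among IL-10 negative groups pTh17 and Th1 were highest and were not called different (edgeR, adjusted p = 0.596), and Th2, Th17 and Tr1 followed in that order, each called lower than the one before. Bhlhe40 lies on chromosome 6 (RefSeq gene 108660629 to 108666925 in GRCm38) and the others on chromosome 10 (Prdm1, 44437174 to 44528558), chromosome 4 (Bach2, 32238413 to 32586109) and chromosome 1 (Il10, 131019845 to 131024970).

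**Figure D2:**
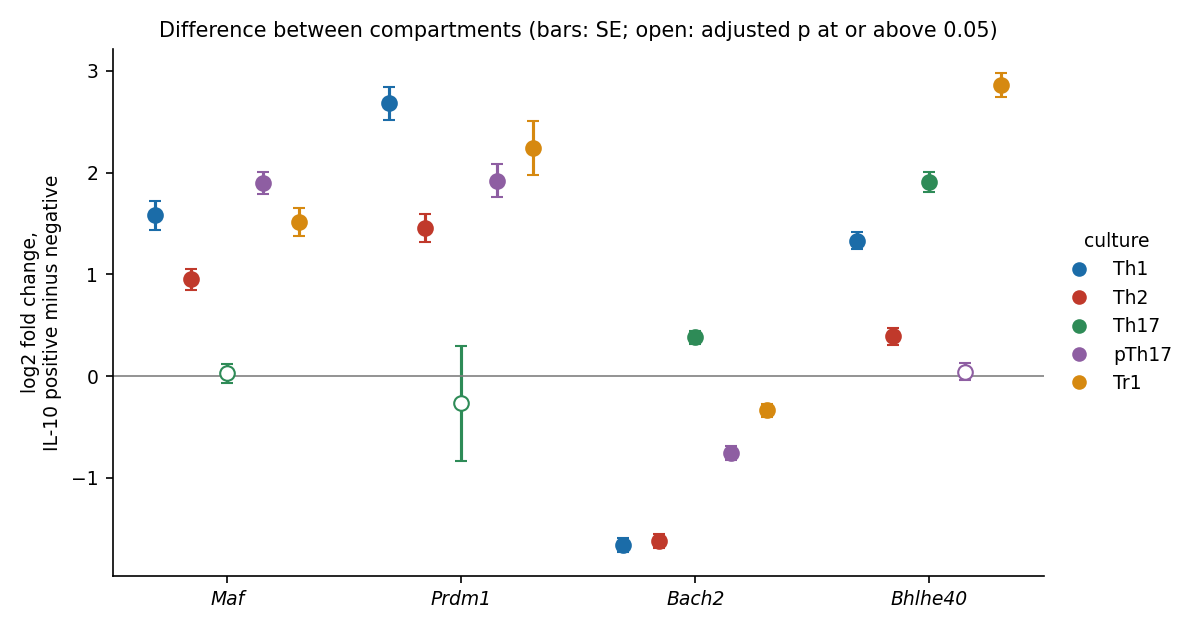
Log2 difference between IL-10 positive and IL-10 negative libraries for each of the 4 regulators, by culture. Points are edgeR estimates, bars their standard errors, and open points are differences with an adjusted p at or above 0.05. Bach2 lies below 0 in every culture but Th17.

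All 4 regulators were called in Th1, Th2 and Tr1, in which 43.8%, 21.8% and 34.7% of all genes were called. Without the library numbered 18, 28.4% were called in Tr1. In pTh17 3 of the 4 were called, against 18.5% of all genes, and in Th17 2 of the 4, against 58.2%. Of the 20 differences, 13 were called higher, 4 lower and 3 not called. The compartments did not overlap for the same number, 17 of 20, with 4 of 4 members in Th1, Th2 and Tr1, 3 of 4 in pTh17 and 2 of 4 in Th17. Of all genes, 51.4% did not overlap in Th1, 38.7% in Th2, 41.3% in Tr1, 32.7% in pTh17 and 62.4% in Th17. Averaged over the 5 cultures with equal weight, the log2 difference was 1.61 ± 0.15 for Prdm1 (edgeR, adjusted p = 1.26e-11), 1.31 ± 0.042 for Bhlhe40 (adjusted p = 9.91e-26), 1.19 ± 0.054 for Maf (adjusted p = 3.23e-21) and -0.80 ± 0.030 for Bach2 (adjusted p = 6.53e-24). By this mean 57.8% of all genes were called.

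The difference of every member varied between cultures. The test that a gene's log2 difference was equal in all 5 cultures gave an adjusted p of 2.87e-21 for Bach2, 3.61e-19 for Bhlhe40, 6.99e-13 for Maf and 1.17e-05 for Prdm1 (edgeR), and 60.7% of all genes were called by it. Between pairs of cultures, 9 of the 10 pairs were called for Bach2 and for Bhlhe40, 7 for Maf and 6 for Prdm1, where 27.3% of all genes were called on pooling the pairs, and 8.62% to 43.2% in a single pair. Th17 was the culture that stood apart for Bach2, where its log2 difference exceeded the one in Th2 (Th2 minus Th17, -2.005 ± 0.092; edgeR, adjusted p = 3.84e-20), whereas Th1 and Th2 did not differ (Th1 minus Th2, -0.036 ± 0.10; adjusted p = 0.853). The same culture stood apart for Maf, with a value of -1.87 ± 0.15 for Th17 minus pTh17 (edgeR, adjusted p = 2.12e-13). For Maf the 3 pairs among Th1, pTh17 and Tr1 were not called, except that pTh17 minus Tr1 was called with no filter (edgeR, adjusted p = 0.047) and with limma (adjusted p = 0.0442). For Bhlhe40 the value of -2.82 ± 0.15 for pTh17 minus Tr1 was the farthest from 0 (edgeR, adjusted p = 6.13e-18), and Th2 minus pTh17, at 0.35 ± 0.12, was not called (adjusted p = 0.0621). This last contrast was called with no filter, with DESeq2, with only the groups compared (adjusted p of 0.00537 to 0.0149) and by edgeR without pTh17 IL-10 positive library 13 (adjusted p = 0.0375). All 4 pairs with Th17 were called for Prdm1, and each lost its call when Th17 IL-10 negative library 11 was left out, with adjusted p of 0.112 to 0.584.

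Levels of different genes were compared in TPM, the deposited level scaled for depth and gene length. The order of 2 genes thus rests in part on the 1 transcript counted for each. Its length was 8493 bases for Bach2, 5143 for Prdm1, 3642 for Maf and 3113 for Bhlhe40. Prdm1 and Bach2, of which the second is known to repress the first, changed places between compartments in 3 of the 5 cultures. Prdm1 exceeded Bach2 in 9 of 15 IL-10 positive libraries, those of Th1, Th2 and pTh17, and in 0 of 15 IL-10 negative libraries. In Th1 the TPM of Prdm1 were 34.00, 33.4 and 32.7 in IL-10 positive libraries and 5.72, 4.78 and 5.45 in IL-10 negative libraries. Bach2 had 11.99, 12.7 and 12.3 TPM in the IL-10 positive and 38.7, 39.5 and 41.2 TPM in the IL-10 negative libraries of that culture. The ratio of Prdm1 to Bach2 was 2.62 to 2.84 in Th1 IL-10 positive libraries and 0.121 to 0.148 in Th1 IL-10 negative libraries. In Th2 it was 3.42 to 5.16 in IL-10 positive and 0.438 to 0.549 in IL-10 negative libraries. In pTh17 it was 1.07 to 1.28 in IL-10 positive and 0.159 to 0.201 in IL-10 negative libraries. Prdm1 led Bach2 least in pTh17. In Tr1 Bach2 remained above Prdm1 in both compartments, 6.06 to 7.24-fold in IL-10 positive and 29.7 to 48.5-fold in IL-10 negative libraries. In Th17 Bach2 exceeded Prdm1 at least 89.4-fold in every library. The lead of Prdm1 in pTh17 came only with the scaling for length. In CPM, Bach2 lay above Prdm1 in every pTh17 IL-10 positive library, at means of 85.6 and 60.4.

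**Figure D3:**
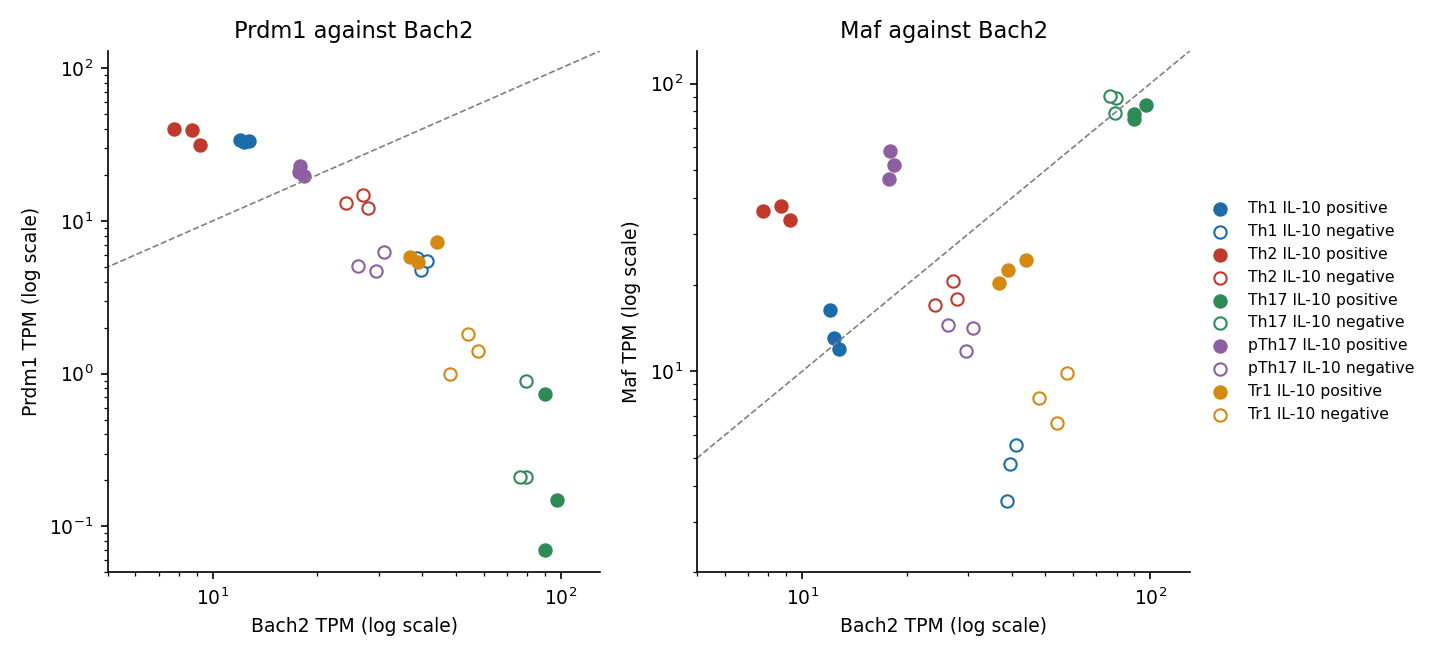
TPM of Prdm1 and of Maf against TPM of Bach2 in each of the 30 libraries, on log axes, with a dashed line where the 2 genes are equal. Filled points are IL-10 positive and open points IL-10 negative libraries. Prdm1 lies above the line in 9 IL-10 positive libraries and in 0 IL-10 negative libraries.

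Maf exceeded Bach2 in 8 of 15 IL-10 positive and 2 of 15 IL-10 negative libraries, the 2 being of Th17. In Th2 the ratio of Maf to Bach2 was 3.63 to 4.67 in IL-10 positive and 0.637 to 0.760 in IL-10 negative libraries. Th17 ran the other way, with 0.835 to 0.869 in IL-10 positive and 0.999 to 1.18 in IL-10 negative libraries. Bhlhe40 exceeded Bach2 in 15 of 15 IL-10 positive and 9 of 15 IL-10 negative libraries. The exceptions were the IL-10 negative libraries of Th17 and Tr1, the cultures with the least Bhlhe40 in that compartment. Maf and Prdm1 were closest in Th2 IL-10 positive libraries, with a ratio of 0.905 to 1.06, while Prdm1 was 2.09 to 2.79-fold above Maf in Th1 IL-10 positive libraries. Maf was at least 99.8-fold above Prdm1 in all Th17 libraries. All these orders are in TPM. In CPM, Maf was below Bach2 in all Th17 libraries and in the Th1 IL-10 positive libraries (means of 30.6 and 65.1). Bhlhe40 was below Bach2 in CPM in the IL-10 positive libraries of Th17 (means of 233 and 391) and Tr1 (137 and 189.7).

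Set beside Il10, Prdm1 had the same order of the 5 IL-10 positive group means, from Th2 through Th1, pTh17 and Tr1 to Th17, and Bach2 had the reverse order. Within these orders pTh17 and Tr1 were not called different for Il10, nor Th2 and Th1 for Prdm1. Maf and Bhlhe40 had other orders. The IL-10 positive groups with the most Il10, Th2 and Th1, also had the most Prdm1 and the least Bach2. Between them, Bhlhe40 was higher in Th1 and Maf higher in Th2. The Th17 IL-10 positive group, lowest in Il10 and in Prdm1, was highest in Maf and Bach2. Over the 10 group means of log2 CPM, Pearson's r with Il10 was 0.67 for Prdm1, 0.57 for Bhlhe40, 0.29 for Maf and -0.72 for Bach2. These 10 points share 5 cultures and a sort on Il10, so r is a description. Among the members, Prdm1 and Bach2 had r = -0.92, Prdm1 and Bhlhe40 0.62, and Bach2 and Bhlhe40 -0.56. Maf and Prdm1 had r = -0.26, and Maf had 0.02 with Bach2 and -0.00 with Bhlhe40.

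**Figure D4:**
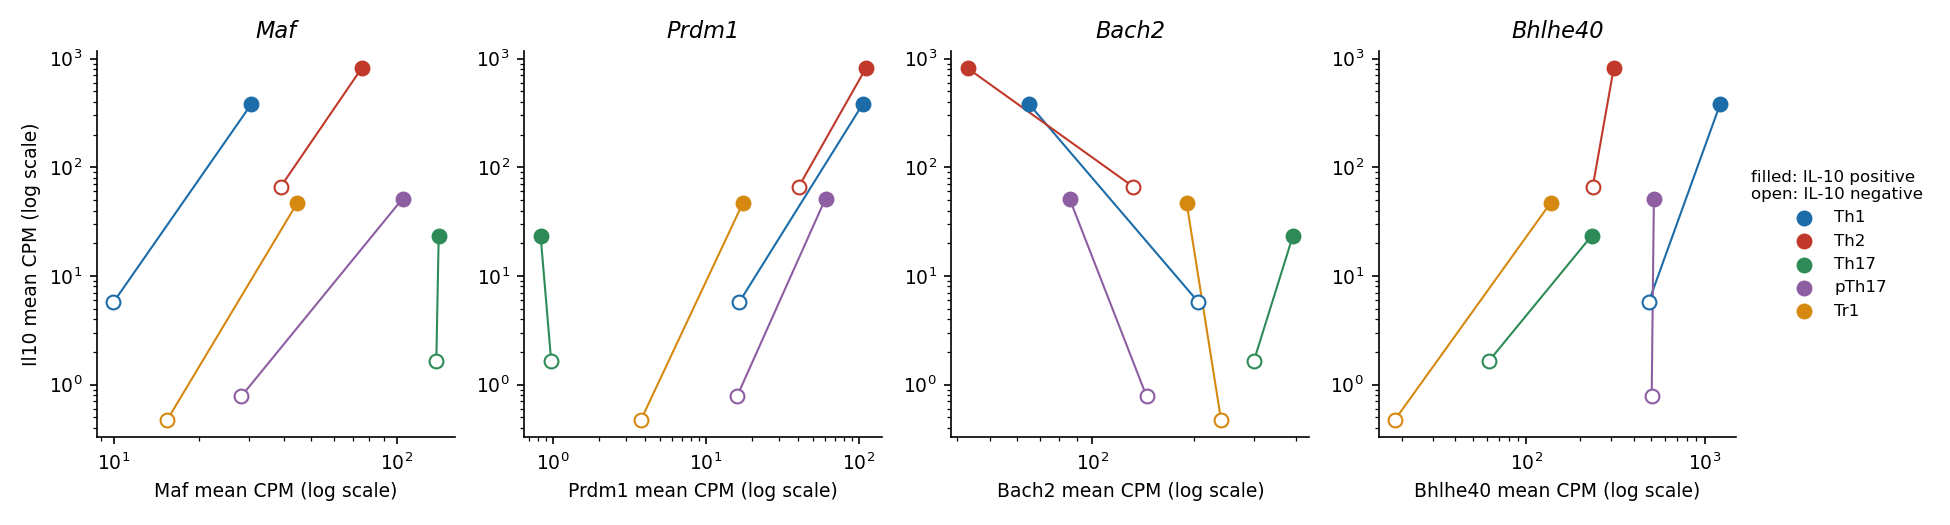
Mean CPM of Il10 against mean CPM of each regulator in the 10 groups (n = 3 libraries each), on log axes. Colours are cultures, filled points IL-10 positive and open points IL-10 negative groups, and a line joins the 2 groups of a culture. The Th17 points lie at low Il10 with high Maf and Bach2.

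The genes whose pattern over the 10 groups was most like that of each member were ranked by the same r among 8851 other genes with a mean of at least 5 CPM. For Bach2 the nearest were Aff3 (r = 0.95), Sesn3, which encodes a stress-induced sestrin (0.93), Tcf7, a factor of naive and memory T cells (0.93), and Mgat5, an enzyme of N-glycan branching (0.91). Aff3 averaged 16.99 CPM in Th1 IL-10 positive and 108 CPM in Th1 IL-10 negative cells. The most opposed to Bach2 were Trp53i11 (-0.96) and Rrbp1, a ribosome-binding protein of the endoplasmic reticulum (-0.96). For Prdm1 the nearest were Rbm47, an RNA-binding protein (0.99), Hip1, which takes part in clathrin-mediated uptake (0.99), Plgrkt, a plasminogen receptor (0.98), and Cass4 (0.95). Rbm47 averaged 14.01 CPM in Th1 IL-10 positive cells, 2.998 CPM in Th1 IL-10 negative cells and 0.125 CPM in Th17 IL-10 positive cells. Arhgap31 and Ldlrad4 were the most opposed to Prdm1 (-0.98 and -0.97).

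For Bhlhe40 the nearest were Hmox1, the inducible heme oxygenase (0.96), Trappc1, of a vesicle-tethering complex (0.96), Sc5d, an enzyme of cholesterol synthesis (0.95), and Idh1, cytosolic isocitrate dehydrogenase (0.95). Hmox1 averaged 6.43 CPM in Tr1 IL-10 positive and 1.13 CPM in Tr1 IL-10 negative cells. Sfswap and Itsn2 were the most opposed (-0.96 and -0.95). For Maf the nearest were Crybg3 (0.93), Rraga, a GTPase that links amino acids to mTORC1 (0.89), Mafg, a small Maf protein (0.86), and Trp53i13 (0.84), all less alike than the nearest gene of the other members. Uqcrh, of mitochondrial complex III, and Eif3k, a translation initiation factor subunit, were the most opposed to Maf (both -0.93).

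Relatives of the members in the same protein families, with the Blimp-1 antagonist Bcl6, made a list of 10 genes, of which 7 were tested. By the mean over cultures 1 was called higher and 3 lower, with a median log2 difference of -0.32 beside -0.00041 over all genes. Mafg, which lacks an activation domain and pairs with other leucine zipper factors, was called higher in Th1, Th2 and Tr1, as Maf was. In pTh17, where Maf was also called higher, Mafg was not called (0.61 ± 0.23; edgeR, adjusted p = 0.0645). It averaged 9.09 ± 0.366 CPM in Th2 IL-10 positive and 3.604 ± 0.113 CPM in Th2 IL-10 negative cells (1.33 ± 0.23; edgeR, adjusted p = 1.97e-05). Mafk, of the same kind, was called lower in the 4 cultures other than pTh17, with -0.93 ± 0.11 in Th17 (edgeR, adjusted p = 4.4e-09). Bach1, the other Bach factor, was called lower in Th17, where Bach2 was higher, at 4.69 ± 1.61 CPM in IL-10 positive and 15.2 ± 2.65 CPM in IL-10 negative cells (-1.69 ± 0.21; edgeR, adjusted p = 9.92e-09). It was also called lower in Th1 and higher in pTh17. Bcl6 was called lower in the 4 cultures other than Th2, with -1.36 ± 0.10 in Th1 and -1.28 ± 0.092 in Th17, and was not called in Th2 (0.0055 ± 0.10; edgeR, adjusted p = 0.983).

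The 18 other factors reported to activate Il10 were more often called lower than higher in IL-10 positive cells. By the mean over cultures 4 were called higher and 12 lower, with a median of -0.22. By that mean 29.6% of all genes were called higher and 28.2% lower. In Th1 4 of the 18 were higher and 8 lower, beside 23.5% and 20.4% of all genes. In Th2 3 were higher and 6 lower, beside 12.3% and 9.49%. In Th17 5 were higher and 10 lower, beside 29.2% and 28.9%. In pTh17 2 were higher and 10 lower, beside 10.1% and 8.33%, and in Tr1 5 were higher and 6 lower, beside 20.5% and 14.2%. Without the library numbered 18 the Tr1 counts were 4 higher and 5 lower, beside 15.5% and 12.9%, with Egr2 and Gata3 no longer called. Nfil3, a basic leucine zipper factor, was called higher in every culture but Th2, and in Tr1 averaged 17.3 ± 2.32 CPM in IL-10 positive and 2.20 ± 0.428 CPM in IL-10 negative cells (3.003 ± 0.28; edgeR, adjusted p = 4.97e-11, and 3.005 without the library numbered 18). Batf, an AP-1 factor of helper T cells, was called higher in every culture but pTh17, the culture in which Bhlhe40 too was not called, and by most in Th17 (1.07 ± 0.10; edgeR, adjusted p = 2.35e-12). Stat6, which relays IL-4 signals, was called lower in all 5 cultures by small amounts, -0.42 ± 0.057 in Th1 and between -0.25 and -0.22 in the others. Irf1, an interferon-induced factor, was called lower in Th2, Th17 and pTh17 and higher in Th1. In Th17 it averaged 42.8 ± 1.41 CPM in IL-10 positive and 167 ± 25.6 CPM in IL-10 negative cells (-1.96 ± 0.083; edgeR, adjusted p = 7.06e-22). Egr3 was called lower in Th1 alone among the 5 cultures, at 0.483 CPM in IL-10 positive and 1.69 CPM in IL-10 negative cells.

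**Figure D5:**
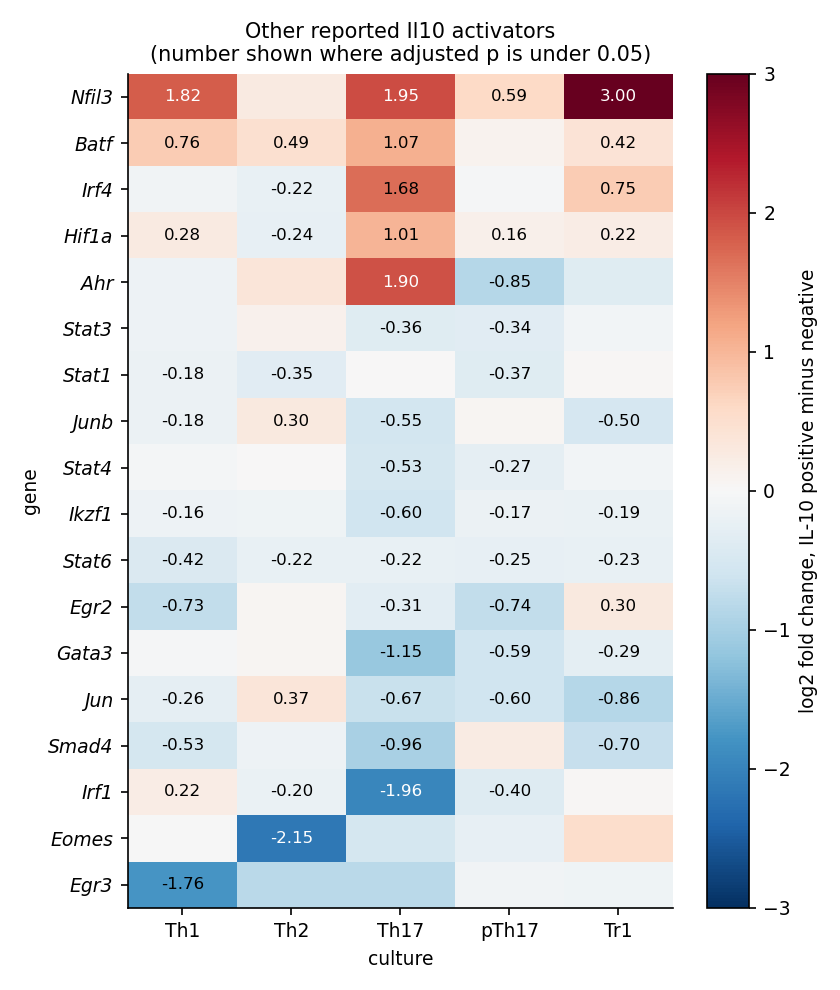
Log2 difference, IL-10 positive minus negative, of 18 other factors reported to activate Il10, in each culture. Colour gives the difference, and its value is written where the adjusted p is under 0.05. Stat6 is lower in all 5 cultures, while Nfil3 and Batf are called higher in 4 each.

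Of 11 genes reported to be repressed by Blimp-1, 10 were tested, and by the mean over cultures 2 were called higher and 6 lower, beside 29.6% and 28.2% of all genes, with a median of -0.72. The 2 were Tbx21, the Th1 factor T-bet, and Ciita, the class II transactivator of antigen-presenting cells, which was not called by this mean without the Tr1 library numbered 18 (edgeR, adjusted p = 0.0514). Tcf7, Ccr7, a homing receptor of naive cells, and Id3, an inhibitor of E proteins, were called lower in all 5 cultures. Tcf7 averaged 29.1 ± 2.99 CPM in Th1 IL-10 positive and 702 ± 46.7 CPM in Th1 IL-10 negative cells (-4.59 ± 0.081; edgeR, adjusted p = 1.03e-33). Tcf7 was also called lower in Th17 (-1.16 ± 0.065; edgeR, adjusted p = 3.12e-18). It averaged 982 ± 54.5 CPM in IL-10 positive and 2202 ± 57.9 CPM in IL-10 negative cells there. Ccr7 was likewise lower in Th1 (-3.94 ± 0.068; edgeR, adjusted p = 7.92e-34) and in Th17 (-1.18 ± 0.059; adjusted p = 1.13e-19). The log2 difference of Id3 was -2.28 ± 0.17 in Th1 and -0.43 ± 0.13 in Th17 (edgeR, adjusted p = 0.00397). Prdm1 was nearly undetected in both Th17 groups. The part of Prdm1 in the differences of these genes was not tested in any culture. Tbx21 was called higher in Th1 (log2 difference 0.55 ± 0.11), Th2 (0.56 ± 0.12) and Tr1 (1.29 ± 0.13) and lower in Th17 (-1.29 ± 0.32; edgeR, adjusted p = 0.000865). Ifng, the gene of interferon gamma and a member of this list too, was called higher in the same 4 cultures as Prdm1, with log2 differences of 2.95 ± 0.12 in Th1, 1.12 ± 0.25 in Th2, 4.25 ± 0.27 in pTh17 and 3.19 ± 0.28 in Tr1. Tbx21 and Ifng were named after their values were seen. By the mean over cultures Ifng was not called. Without the library numbered 18 its mean difference was 2.30 with a standard error of 4048, so this lack of a call cannot show whether it changed. Ciita was called higher in pTh17, at 3.88 CPM in IL-10 positive and 0.319 CPM in IL-10 negative cells, beside the B cell genes of that culture, whose part was not tested.

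Of the 4 genes reported to be induced by Maf, 3 were called higher by the mean over cultures, 1 of them Il10, beside 29.6% of all genes. Il21, a cytokine of follicular helper and Th17 cells, was called higher in Th17 (1.39 ± 0.082; edgeR, adjusted p = 1.59e-17). It averaged 381 ± 13.5 CPM in IL-10 positive and 145 ± 6.45 CPM in IL-10 negative cells there. In pTh17 Il21 was called lower (-0.46 ± 0.079; edgeR, adjusted p = 3.39e-05), at 259 ± 4.14 CPM in IL-10 positive and 355 ± 26.5 CPM in IL-10 negative cells. Maf was not called in Th17 and was called higher in pTh17. The part of Maf in the Il21 differences was not tested. Icos, a costimulatory receptor, was called higher in Th1, pTh17 and Tr1 and lower in Th2, with 1.43 ± 0.059 in pTh17 (edgeR, adjusted p = 8e-21). The 4 genes reported to be repressed by Bach2, Prdm1 and the cytokine genes Il4, Il5 and Il13, were all called higher in Th2 and pTh17, where 12.3% and 10.1% of all genes were. Prdm1 alone was called among them in Th1 and Tr1, beside 23.5% and 20.5% of all genes called higher. In Tr1 the median log2 difference of the list was 0. Without the Tr1 IL-10 positive library that stood apart, Il4 and Il13 had a Tr1 difference of 0 and no standard error. Their lack of a call in Tr1 therefore cannot show whether they changed. In Th17 Il4 was nearest to a call (edgeR, adjusted p = 0.051). Of the 2 genes reported to be induced by Bhlhe40, Csf2 had too few counts to be tested. The other, Ifng, was called higher in Th1, Th2, pTh17 and Tr1, and had 0 counts in all 6 Th17 libraries. Bhlhe40 was called higher in Th1, Th2, Th17 and Tr1 and was not called in pTh17. A link between the 2 genes was not tested.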

How the data were processed

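Gene expression was measured by RNA-seq in 30 libraries, made by an adaptation of SMART-Seq2 per the labels' protocols. The authors deposited a table per library with fractional expected counts from RSEM and TPM, a level scaled for depth and gene length, per the file headers. RSEM and the mm10 build are those of the submitters' processing notes, without a version, and an aligner is not given in the sources used here. No molecular identifiers and no strand are stated, so counts may include amplified copies and reads of overlapping genes.

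Expected counts were rounded. filterByExpr of edgeR 4.0.16 (R 4.3.3) kept 12611 of 23420 genes, with TMM scaling. edgeR's quasi-likelihood test was run on 1 fit of the 30 libraries, with a mean per group, and p-values were two-sided, adjusted by Benjamini-Hochberg over all genes tested and called below 0.05. Standard errors were the log2 difference over the square root of F. Correlations used log2 CPM with a prior count of 2. Gene names came from the tables. Groups came from the sample titles. Members and lists were chosen with earlier results of these data known, so list counts are descriptions. Named genes were the members, Il10, list genes called in all 5 cultures with 1 sign, up to 4 called genes per list by the size of the mean difference, and the 4 genes most like and 2 least like each member. Coordinates came from RefSeq annotation of GRCm38. Alternatives used median-of-ratios size factors, DESeq2 1.42.0, no filter, limma 3.58.1 on log2(TPM + 1), the groups compared alone, the title number as a block, and each library left out. The test was checked on simulated data.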

Additional observations from a re-analysis of the deposited data

Results flagged for a closer look

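The difference between IL-10 positive and IL-10 negative cells differed between cultures for each of the 4 regulators, by the edgeR test that it was equal in all 5. The adjusted p was 6.99e-13 for Maf, 1.17e-05 for Prdm1, 2.87e-21 for Bach2 and 3.61e-19 for Bhlhe40. The values below are the log2 difference in one culture minus that in another, for the pairs of cultures in which this contrast was called.

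For Bach2 they were -2.04 for Th1 minus Th17, -1.32 for Th1 minus Tr1, -0.90 for Th1 minus pTh17, 0.72 for Th17 minus Tr1, 1.14 for Th17 minus pTh17, -2.005 for Th2 minus Th17, -1.29 for Th2 minus Tr1, -0.87 for Th2 minus pTh17 and -0.42 for pTh17 minus Tr1. With limma on log2(TPM + 1), pTh17 minus Tr1 was -0.25 and not called (adjusted p = 0.119). Bach2 was called higher in IL-10 positive cells in Th17 and lower in the other 4 cultures. For Bhlhe40 they were -0.58 for Th1 minus Th17, 0.94 for Th1 minus Th2, -1.53 for Th1 minus Tr1, 1.29 for Th1 minus pTh17, -0.95 for Th17 minus Tr1, 1.87 for Th17 minus pTh17, -1.52 for Th2 minus Th17, -2.47 for Th2 minus Tr1 and -2.82 for pTh17 minus Tr1. Its difference in Tr1 exceeded that in each other culture.

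For Maf they were 1.55 for Th1 minus Th17, 0.63 for Th1 minus Th2, -1.49 for Th17 minus Tr1, -1.87 for Th17 minus pTh17, 0.92 for Th2 minus Th17, -0.57 for Th2 minus Tr1 and -0.95 for Th2 minus pTh17. The difference in Th17 was the smallest of the 5. Without either Th1 library numbered 4, left out in turn, Th1 minus Th2 was not called, at 0.48 without the IL-10 positive one (edgeR, adjusted p = 0.0564) and 0.51 without the IL-10 negative one (adjusted p = 0.055). Th2 minus Tr1 was not called without Th2 IL-10 negative library 7, at -0.49 (edgeR, adjusted p = 0.0525), or Tr1 IL-10 negative library 16, at -0.44 (adjusted p = 0.0854). With limma on log2(TPM + 1) neither was called, with 0.48 for Th1 minus Th2 (adjusted p = 0.0777) and -0.44 for Th2 minus Tr1 (adjusted p = 0.0954).

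For Prdm1 they were 2.95 for Th1 minus Th17, 1.23 for Th1 minus Th2, 0.76 for Th1 minus pTh17, -2.51 for Th17 minus Tr1, -2.19 for Th17 minus pTh17 and 1.72 for Th2 minus Th17. Without Th17 IL-10 negative library 11, the pairs with Th17 were 1.92 for Th1 minus Th17, 0.69 for Th2 minus Th17, -1.15 for Th17 minus pTh17 and -1.47 for Th17 minus Tr1, and none was called by edgeR (adjusted p of 0.112 to 0.584). Th2 minus Th17 was also not called without Th17 IL-10 positive library 11, at 1.25 (edgeR, adjusted p = 0.0861), or 12, at 1.37 (adjusted p = 0.075). Nor was it called by edgeR with only the groups compared, at 1.68 (adjusted p = 0.06). Th1 minus pTh17 was not called with limma on log2(TPM + 1), at 0.64 (adjusted p = 0.0702).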

How the results depend on the processing

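For the 4 members and Il10, the differences in each culture, their mean and the test of equality kept their direction and call in 198 of 199 values under other settings of all libraries, and in 445 of 450 with 1 library left out. Maf in Th17, which was not called, was -0.12 with limma on log2(TPM + 1) (adjusted p = 0.46). Prdm1 in Th17, with 2 to 20 counts a library, ran from -1.76 to 0.77 with 1 library left out. It was called in 1 case, without IL-10 positive library 10 (edgeR, adjusted p = 0.0212), and above 0 without IL-10 negative library 11 or IL-10 positive library 11 or 12. Bhlhe40 in pTh17 ran from -0.021 to 0.073. Counts of genes called stayed within 1.5 times in all settings.

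Of the contrasts between cultures, 10 of 240 gained and 5 lost a call under other settings of all libraries, and 2 and 10 of 480 with 1 library left out. Of the level contrasts, 6 of 800 gained and 1 lost a call, and 1 and 1 of 960 with 1 library left out. Prdm1 in Th2 minus Tr1, uncalled, was called with no filter, DESeq2 and only the groups compared (-0.68, -0.82 and -0.77), and Prdm1 in Th1 minus Tr1 with limma (0.87). Other contrasts close to 0 changed sign while staying uncalled. With size factors, no filter and DESeq2, Bach2 in Th1 minus Th2 was 0.023, 0.024 and 0.023, and ran from -0.10 to 0.037 with 1 library left out. Prdm1 in pTh17 minus Tr1 was 0.23 with limma. Maf in Th1 minus Tr1 ran from -0.080 to 0.23 with 1 library left out. For levels, Bhlhe40 in the Th17 IL-10 positive minus the Th2 IL-10 negative group was 0.013 with size factors and with DESeq2, 0.23 with limma, 0.041 with only the groups compared, and -0.062 to 0.016 with 1 library left out. Prdm1 in the Th1 minus the pTh17 IL-10 negative group was -0.023, -0.018, -0.0018, -0.023 and -0.0023 with size factors, no filter, limma, DESeq2 and only the groups compared, and -0.028 to 0.13 with 1 library left out. Prdm1 in the Tr1 IL-10 positive minus the Th1 and the pTh17 IL-10 negative groups was -0.012 and -0.030 with no filter, and -0.015 to 0.17 for the first with 1 library left out. Maf in the Th1 IL-10 positive minus the pTh17 IL-10 negative group was -0.039 to 0.21 with 1 library left out. The cause of these changes was not tested.

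The other settings shifted the median log2 difference of all genes by less than 0.1. They moved the higher share of called genes by more than 10 points in 3 cases, to 39.9% in Th17 and 70.8% in pTh17 with limma on TPM, beside 50.3% and 54.9%, and to 46.8% in Tr1 with no filter, beside 59.2%. Of the 4 genes most like each member, Pearson's r over 30 libraries shared 3 for Maf, 4 for Prdm1, 3 for Bach2 and 2 for Bhlhe40, and Spearman's rho over the 10 group means 1, 2, 0 and 1.

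The title numbers, shared by an IL-10 positive and a negative library, were checked as a pairing. The deviations of same-numbered libraries from their group means correlated at -0.093 to 0.11, above 0.1 in 1 of 15 pairs. Differently numbered libraries were not compared in the same way, so this check cannot exclude a pairing. The main fit did not treat the numbers as pairs. With the replicate block, the called differences of the members kept their calls; Prdm1 in Th17 was -0.29 and Bach2 in Th17 0.38. With the block 5467 genes were called in Th1, beside 5529 without it. Few counts limit what can be read of Prdm1 in Th17 and of Il10 in 3 of the IL-10 negative groups.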
